A study of Rattus norvegicus with 6 samples.

Results

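The genes described here belong to the secretory pathway and to protein folding in the endoplasmic reticulum (ER). They are 39 genes listed by symbol, of which 7 belong to the translocon, 5 to signal peptidase, 3 to oligosaccharyltransferase (OST), 4 to the COPI coat and 5 to the COPII coat, while 8 are chaperones, 4 are disulphide isomerases and 3 are transcription factors of the unfolded protein response (UPR). Each gene was read from the probe set annotated to that gene alone with the highest mean over the 6 arrays, so that no difference between stages entered the choice. Of the 39 genes, 38 had such a probe set. All 38 averaged 100 units or more in 1 stage or several and were tested, among 10334 genes tested of 14217 with a single-gene probe set. Sec23a was not analysed here.

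Choroid plexuses of the lateral ventricles were taken from Sprague-Dawley rats at embryonic day 19 (E19), at postnatal day 2 (P2) and in adulthood, with no other treatment, and the study obtained males as adults. Each stage had 2 arrays, and each array held RNA pooled from several rats, 5 rats for each perinatal pool and 3 for each adult pool, or 6 to 10 plexuses by the labels. The study set both perinatal stages against the adult to find out how far the protective gene equipment of the plexus is in place around birth. Values are MAS5 signal intensities in arbitrary units, and p-values measure the spread between pools, not between animals.

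Secreted and membrane proteins enter the ER through the Sec61 translocon, lose their signal peptide to signal peptidase and receive N-linked sugars from OST. Chaperones and disulphide isomerases fold them, COPII vesicles carry them to the Golgi apparatus, and COPI vesicles bring escaped ER proteins back. When folding lags behind, the UPR raises chaperone genes through the factors ATF6, XBP1 and ATF4. Part of this runs through the ER stress response element (ERSE), on which ATF6 acts. The choroid plexus epithelium is a secretory tissue, known for releasing transthyretin and other proteins into the cerebrospinal fluid (CSF).

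The stretches of promoter that carry such elements are shown first, because they set 8 of the genes apart by sequence before any value is read. Promoters from RefSeq (build GRCr8), from 250 bases before to 50 bases after the annotated start, existed for 34 of the 39 genes, with Sec24d, Pdia3, Sec61a1, Pdia6 and Sar1a not among them. They were searched on both strands for the ERSE (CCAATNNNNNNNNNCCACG), the ERSE-II (ATTGGNCCACG) and the unfolded protein response element, or UPRE (TGACGTGG). The ERSE was found in 6 of these 34 promoters and in 21 of all 27457 promoters (0.0765%), and the ERSE-II in 2 of the 34 and in 15 of all promoters (0.0546%). Each line gives the site with up to 20 bases on either side, 5′ to 3′ on the strand of the gene, with the fixed letters of the motif in capitals. Where the capitals begin with CGTGG, the motif lies on the opposite strand.
Hspa5 (chr3:38452953-38453011, + strand, ERSE): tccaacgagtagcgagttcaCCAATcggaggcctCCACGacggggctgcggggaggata
Hsp90b1 (chr7:23012431-23012489, - strand, ERSE): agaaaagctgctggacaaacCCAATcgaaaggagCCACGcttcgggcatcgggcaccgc
Hsp90b1 (chr7:23012327-23012385, - strand, ERSE): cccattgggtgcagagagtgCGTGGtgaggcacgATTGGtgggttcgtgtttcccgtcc
Calr (chr19:40213117-40213173, + strand, ERSE): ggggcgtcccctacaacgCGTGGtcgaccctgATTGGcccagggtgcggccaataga
Canx (chr10:35158049-35158107, - strand, ERSE): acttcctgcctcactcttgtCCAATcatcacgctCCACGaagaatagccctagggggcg
Dnajc3 (chr15:102432514-102432572, + strand, ERSE): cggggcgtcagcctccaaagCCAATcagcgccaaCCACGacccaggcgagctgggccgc
Xbp1 (chr14:84604538-84604596, + strand, ERSE): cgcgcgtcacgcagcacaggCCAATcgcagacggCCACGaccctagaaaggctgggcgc
Hyou1 (chr8:53602674-53602724, + strand, ERSE-II): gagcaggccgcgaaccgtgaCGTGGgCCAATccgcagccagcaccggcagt
Hyou1 (chr8:53602774-53602824, + strand, ERSE-II): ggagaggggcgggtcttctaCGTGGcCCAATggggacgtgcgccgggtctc
Dnajb11 (chr11:91672780-91672830, - strand, ERSE-II): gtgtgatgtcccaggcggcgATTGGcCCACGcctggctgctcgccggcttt

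All 8 genes of these lines are chaperones or, for Xbp1, a factor of the response itself. Hsp90b1 and Hyou1 held 2 sites each, and the site of Hspa5 lay closest to the start among the ERSE sites, from 43 to 25 bases before it. The UPRE was less rare, in 175 of all promoters (0.637%), and was found in Hyou1, Copa, Copb1, Copb2 and Sec23a. In Hyou1 it overlapped the ERSE-II farther from the start. A match of letters is a description and not a measured binding site.

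**Figure D1:**
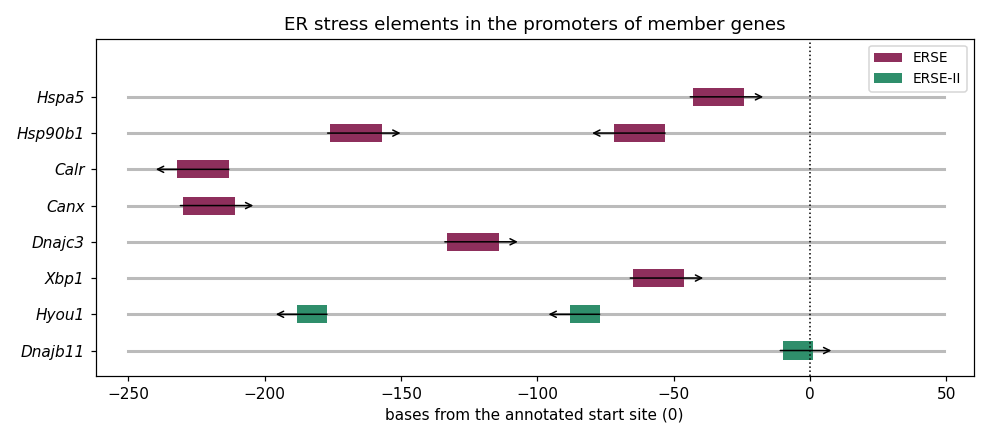
Positions of the ERSE (purple) and ERSE-II (green) in the promoters of 8 genes, in bases from the annotated start (0, dotted line), with grey lines for the 300 bases searched and arrows for the strand of the motif. Hsp90b1 and Hyou1 have 2 sites each, and the ERSE-II of Dnajb11 reaches the start itself.

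On the 6 arrays, 50 to 53.5% of probe sets were at or above 100 units. The median over all probe sets was 124.5 and 125.1 units in the E19 pools, 125.6 and 120.4 in the P2 pools and 106.1 and 100.1 in the adult pools. This median, which lay close to 100 units, thus differed along with stage. The pools of a stage were a median of 4.17% (E19), 6.52% (P2) and 3.22% (adult) apart over the 38 genes. The widest gaps between pools were those of Xbp1 at E19 (25.3%), Ddit3 at P2 (21.1%) and Hyou1 in the adult (29.6%). Of the epithelial marker list, 13 of 15 genes had a probe set and Kcnj13 was under 100 units on every array, while Ttr, the transthyretin gene, read between 10837 and 14847 units. Summed intensity of the epithelial markers was 97086 to 100464 units in E19 pools, 101809 to 106528 in P2 pools and 145458 to 153213 in adult pools, where Prlr and F5 were far brighter. Of 12 epithelial markers tested, 1 was higher and 6 were lower at E19, and 0 were higher and 5 lower at P2, relative to the adult.

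Summed markers of stromal, vascular and dividing cells were higher at the perinatal stages. The 12 fibroblast markers summed to 36635 to 36703 units in E19 pools, 36512 to 41164 in P2 pools and 14330 to 18307 in adult pools, with 10 of 12 higher and 2 lower at E19 and 9 higher and 1 lower at P2. Endothelial markers summed to 11024 to 11603 units in E19 pools, 10147 to 11126 in P2 pools and 2116 to 2139 in adult pools, with 10 of 11 higher at each perinatal stage, and all 10 cell cycle genes were higher at both. Plasma cells are rich in these secretory genes, and of their 4 markers with a probe set, Jchain, Mzb1 and Pou2af1 were under 100 units on every array, while Sdc1, which epithelia also express, read 378.0 to 415.5 units on the perinatal arrays and 250 and 323.5 in the adult pools (log2 0.45, adjusted p = 0.0482 at E19, and 0.48, adjusted p = 0.0449 at P2). Macrophage and myeloid markers summed to 3389 to 3453 units in E19 pools, 4531 to 5785 in P2 pools and 7670 to 7681 in adult pools, with 2 of 9 tested higher and 2 lower at E19 and 6 higher and 1 lower at P2, and Lyz2 alone held 6048 and 6018 units of the adult sums. Neuron and glia markers summed to 474 to 540 units in E19 pools, 883 to 1156 in P2 pools and 1958 to 3457 in adult pools, with 4 of 5 tested lower at E19 and 2 at P2. The adult pools also held the oligodendrocyte gene Mbp, at 1989 and 656 units, against 5.76 to 77.0 on the 4 perinatal arrays. The part of these cell types in the results that follow was not tested, and in RNA of whole tissue fewer cells of a type and less RNA per cell cannot be told apart.

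Against the adult, 7 of 38 (18.4%) were higher and 11 (28.9%) lower at E19 at an adjusted p under 0.05 (limma, Benjamini-Hochberg over 17808 probe sets), where 31.4% of the 10334 genes tested were higher and 25.2% lower. At P2, the counts were 9 higher (23.7%) and 12 lower (31.6%), against 28.8% and 21.8% of all genes. In both directions together, 47.4% of the 38 were called at E19 and 55.3% at P2, against 56.6% and 50.7% of all genes. The shares that were higher lay under that background and the shares that were lower lay above it, which was not tested. None of the 38 passed the test for P2 versus E19, where 3.61% of all genes were higher and 2.56% lower. An unadjusted p under 0.05 was found for 8 of the 38 and for 2754 of the 10334 genes.

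Most differences were small. The median log2 difference of the 38 genes was -0.10 for E19 versus adult, -0.08 for P2 versus adult and 0.00 for P2 versus E19, beside 0.04, 0.05 and 0.01 over all genes tested. In each comparison with the adult, 31 of the 38 (81.6%) lay within 1.5-fold of it, as did 59.4% (E19) and 64.2% (P2) of the 10334 genes. The range ran from -1.65 (Sec11c) to 0.87 (Ssr2) at E19 and from -1.12 (Sec11c) to 0.76 (Ssr2) at P2. Both comparisons share the adult pools.

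The calls depend on how arrays are brought to 1 scale. Centring each array on its median over all probe sets moved the median of the tested probe sets to -0.23 at E19 and -0.22 at P2, against 0.05 and 0.04 as deposited, and the share of called probe sets that were higher to 33.8% and 33.3%, against 55.7% and 55.6%. Other scalings moved that median less. It was -0.03 and -0.04 with quantile normalization, and -0.06 and -0.08 with centring on the tested probe sets alone. With centring on all probe sets, Sec61b and Ssr2 were the only genes of the 38 called higher at either stage (5.26%, against 20.2% of all genes at E19 and 19% at P2 with the same centring), and all 11 and 12 genes called lower stayed lower. The number called lower became 22 (57.9%) at E19 and 20 (52.6%) at P2, against 40.4% and 36.4% of all genes with the same centring. The genes called lower with this centring but not on the deposited scale were Ssr3, Spcs1, Calr, Pdia3, Cope and Sar1a at both stages, Ssr4, Ddost, Hsp90b1, Copa and Copb1 at E19, and Dnajb11 and Atf4 at P2. Under none of the alternatives did a called gene of the 38 turn in sign. Of the 39 calls at the 2 perinatal stages, 19 held in every fit that left out 1 pool and 16 under every alternative, namely the higher values of Sec61b and Ssr2 at both stages, the lower values of Sec11c, Rpn1, Hspa5 and Sdf2l1 at both stages, those of Rpn2, Dnajb11 and Atf4 at E19 and that of Dnajc3 at P2.

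**Figure D2:**
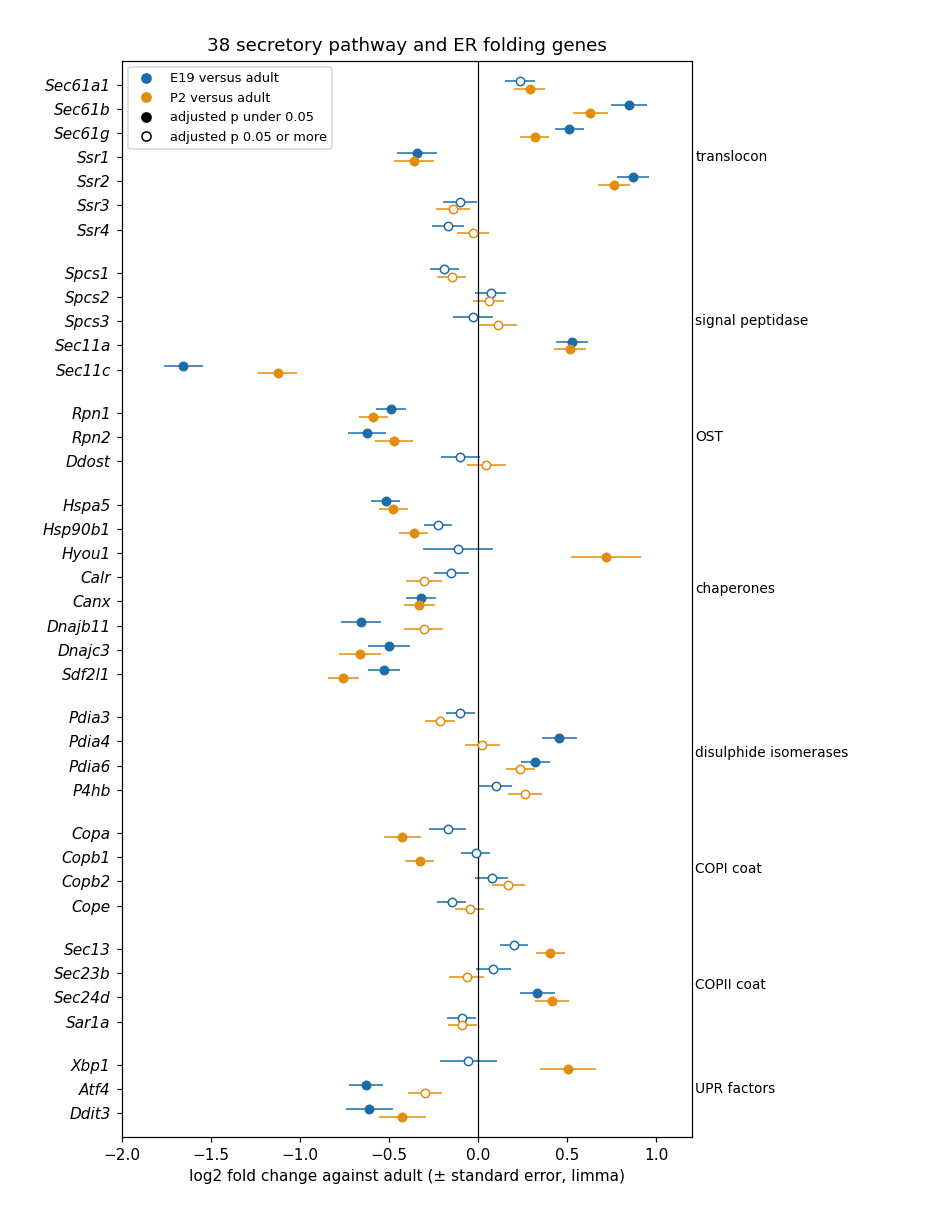
Log2 fold change of 38 genes at E19 (blue) and P2 (orange) relative to the adult, with the standard error from limma, grouped by role (OST, oligosaccharyltransferase; UPR factors, transcription factors of the unfolded protein response) and filled where the adjusted p was under 0.05. Ssr2 (0.87 and 0.76) lies farthest to the right and Sec11c (-1.65 and -1.12) farthest to the left, while Hyou1 lies near 0 at E19 (-0.11) and far to the right at P2 (0.72). With each array centred on its median, the points filled on the right other than Sec61b and Ssr2 are no longer called and further points on the left are.

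Translocon genes did not move as a block. Of 7 genes, 3 were higher, 1 lower and 3 not called at E19, and 4 were higher, 1 lower and 2 not called at P2. Their medians were 0.24 and 0.29 on the log2 scale. The shares over all genes tested were 31.4% higher and 25.2% lower at E19, and 28.8% and 21.8% at P2. With median centring 2 translocon genes were higher at each stage (Sec61b and Ssr2), with 3 lower at E19 (Ssr1, Ssr3 and Ssr4) and 2 at P2 (Ssr1 and Ssr3). The same centring gave 20.2% of all genes higher and 40.4% lower at E19, and 19% and 36.4% at P2. Sec61b, a small subunit beside the channel, read 8188 and 7872 units in the E19 pools, 6504 and 7338 in the P2 pools and 4594 and 4334 in the adult pools. All 4 perinatal values lay above both adult values. The difference from the adult was 1.80-fold at E19 (log2 0.85 ± 0.10, SE, adjusted p = 0.00196) and 1.55-fold at P2 (0.63 ± 0.10, adjusted p = 0.00594).

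Ssr2, the beta subunit of the translocon-associated protein (TRAP) complex, showed the same order of stages. It read 3834 and 4044 units in the E19 pools, 3643 and 3687 in the P2 pools and 2250 and 2069 in the adult pools, with no overlap between perinatal and adult arrays. It was higher 1.83-fold at E19 (log2 0.87 ± 0.09, adjusted p = 0.0013) and 1.70-fold at P2 (0.76 ± 0.09, adjusted p = 0.0024). Its partner Ssr1, the alpha subunit of the same complex, went the other way. Ssr1 read 2804 and 2905 units in the E19 pools, 2755 and 2875 in the P2 pools and 3932 and 3320 in the adult pools, a log2 difference of -0.34 (adjusted p = 0.0499) and -0.36 (adjusted p = 0.046).

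The adult pools of Ssr1 were far apart, and its calls held only in the fit without adult pool 2, with log2 differences from -0.46 to -0.22 at E19 and from -0.48 to -0.24 at P2 over the 6 fits that left out 1 pool. A second probe set of Ssr1 was lower as well, by 0.78 at E19 and 0.89 at P2 on the log2 scale. Within each array, the log2 ratio of Ssr2 to Ssr1 was 0.45 and 0.48 in E19 pools, 0.40 and 0.36 in P2 pools and -0.81 and -0.68 in adult pools. This ratio does not depend on the scaling of the arrays, and it stood higher than in the adult 2.31-fold at E19 and 2.18-fold at P2. Ssr3 and Ssr4, the gamma and delta subunits, differed from the adult by -0.17 to -0.03 on the log2 scale and were not called on the deposited scale.

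Sec61g, the brightest probe set of the group and the third subunit of the channel complex, read 12416 and 12460 units in the E19 pools, 10652 and 11109 in the P2 pools and 8863 and 8573 in the adult pools. Every perinatal value was above the adult ones, by 0.51 at E19 (adjusted p = 0.00506) and 0.32 at P2 (adjusted p = 0.0259) on the log2 scale. Sec61a1, which forms the channel itself, read 1415 and 1476 units in the E19 pools, 1451 and 1548 in the P2 pools and 1218 and 1235 in the adult pools, a log2 difference of 0.24 (adjusted p = 0.0651) and 0.29 (adjusted p = 0.0403). A second, dimmer probe set of Sec61a1 stood at 0.33 at E19 and -0.02 at P2 and was called at E19 but not at P2. Leaving out any 1 of the 6 pools ended the calls of Sec61a1 and Sec61g at P2, with log2 differences of 0.24 to 0.34 for Sec61a1 and 0.29 to 0.35 for Sec61g.

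The 2 catalytic subunits of signal peptidase moved apart more than the other pairs of partners compared within arrays. Sec11c read 2180 and 2333 units in the E19 pools, 3029 and 3490 in the P2 pools and 7369 and 6823 in the adult pools. The stages formed 3 separate levels, with means of 2256 ± 108 units for E19, 3260 ± 326 for P2 and 7096 ± 386 for the adult (SD, n = 2 each). The gene was lower 3.14-fold at E19 (log2 -1.65 ± 0.11, adjusted p = 0.000379) and 2.18-fold at P2 (-1.12 ± 0.11, adjusted p = 0.00141) relative to the adult. At P2 it stood 1.44-fold above E19, with an adjusted p of 0.0558.

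Sec11a, the other catalytic subunit, read 3445 and 3571 units in the E19 pools, 3348 and 3625 in the P2 pools and 2359 and 2513 in the adult pools. It was higher 1.44-fold at E19 (log2 0.53, adjusted p = 0.00683) and 1.43-fold at P2 (0.52, adjusted p = 0.00853), and with median centring the log2 differences were 0.25 and 0.26 and not called. The log2 ratio of Sec11c to Sec11a within an array was -0.66 and -0.61 in E19 pools, -0.14 and -0.05 in P2 pools and 1.64 and 1.44 in adult pools. It was thus below 0 on every perinatal array and above 0 on both adult arrays, lower than in the adult 4.53-fold at E19 and 3.12-fold at P2. Levels of different probe sets cannot be set against each other, so the ratio says how the balance differed between stages and not which subunit was more abundant.

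The accessory subunits Spcs1, Spcs2 and Spcs3 were not called at either stage, although Spcs1 was called lower at both with median centring. Spcs1, the brightest of the group, read 9563 and 9470 units in the E19 pools, 9834 and 9768 in the P2 pools and 11162 and 10545 in the adult pools. Its adult pools were the highest, but the log2 differences of -0.19 and -0.15 did not pass the test (adjusted p = 0.105 and 0.192). Spcs2 and Spcs3 differed from the adult by -0.03 to 0.11 on the log2 scale.

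**Figure D3:**
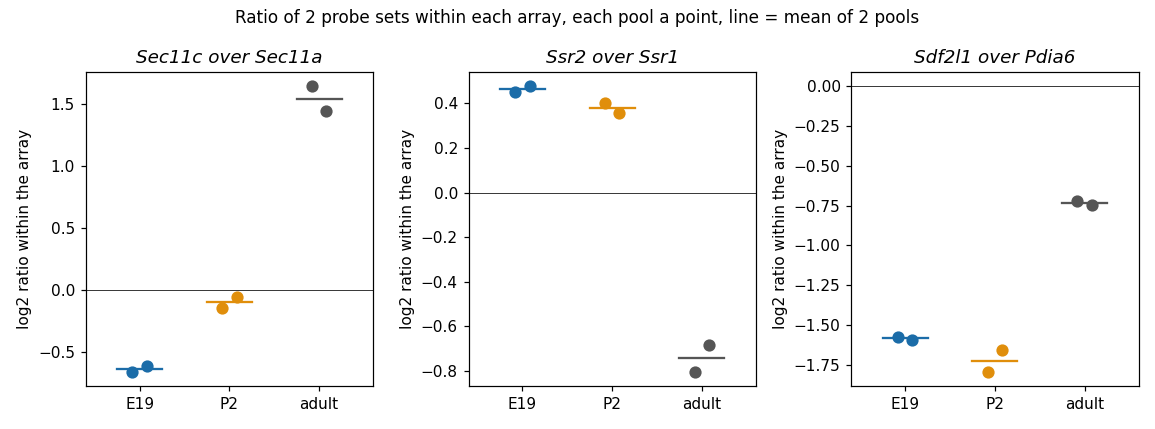
Log2 ratio of 2 probe sets within each array for 3 pairs, with a point per pool and a line at the mean of the 2 pools at E19 (blue), P2 (orange) and in the adult (grey); vertical axes differ and do not start at a common value. Sec11c over Sec11a lies below 0 at E19 and P2 and at 1.64 and 1.44 in the adult, Ssr2 over Ssr1 lies above 0 only at E19 and P2, and Sdf2l1 over Pdia6 is highest in the adult.

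Among the OST subunits, the ribophorins Rpn1 and Rpn2 were lower at both perinatal stages and Ddost was not called, giving 2 of 3 lower at each stage and medians of -0.49 and -0.47. The share of lower genes among all genes tested was 25.2% at E19 and 21.8% at P2. Rpn1 read 5882 and 5576 units in the E19 pools, 5454 and 5242 in the P2 pools and 8010 and 8055 in the adult pools. The adult pools were nearly identical and stood clear of the other 4, with Rpn1 lower 1.40-fold at E19 (log2 -0.49 ± 0.08, adjusted p = 0.0064) and by a log2 difference of -0.59 ± 0.08 at P2 (adjusted p = 0.00429). Rpn2 read 4950 and 4615 units in the E19 pools, 5627 and 5029 in the P2 pools and 7720 and 7038 in the adult pools. It was lower 1.54-fold at E19 (log2 -0.62 ± 0.11, adjusted p = 0.00635) and 1.39-fold at P2 (-0.47 ± 0.11, adjusted p = 0.0181).

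The call of Rpn2 at P2 ended without P2 pool 2 or adult pool 1, where the log2 difference ranged from -0.55 to -0.39 over the fits that left out 1 pool. Ddost, another subunit of the same complex, read 3475 and 3558 units in the E19 pools, 4005 and 3770 in the P2 pools and 4073 and 3479 in the adult pools, so that the stages overlapped. The log2 ratio of Rpn1 to Ddost was lower than in the adult by 0.39 at E19 and by 0.63 at P2.

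Chaperones were the group with the most genes lower than in the adult by count, 5 of 8 (62.5%) at each perinatal stage, with medians of -0.41 at E19 and -0.34 at P2. Among all genes tested, 25.2% were lower at E19 and 21.8% at P2. By share, the smaller groups of OST (66.7% at each stage) and UPR factors (66.7% at E19) stood above the chaperones. With median centring 7 of 8 chaperones (87.5%) were lower at each stage, all but Hyou1, against 40.4% (E19) and 36.4% (P2) of all genes. None was higher at E19 and 1, Hyou1, was higher at P2, and the call of Hyou1 ended under quantile normalization and both median centrings. Hspa5 (BiP), the main Hsp70 chaperone of the ER, read 12505 and 11822 units in the E19 pools, 12645 and 12412 in the P2 pools and 17359 and 17481 in the adult pools. Perinatal and adult arrays were well apart, and E19 and P2 overlapped. Hspa5 was lower 1.43-fold at E19 (log2 -0.52 ± 0.08, adjusted p = 0.00503) and 1.39-fold at P2 (-0.48 ± 0.08, adjusted p = 0.00786).

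The co-chaperones that work with BiP followed it in part. Sdf2l1 read 3380 and 3480 units in the E19 pools, 2801 and 3065 in the P2 pools and 4988 and 4907 in the adult pools, lower 1.44-fold at E19 (adjusted p = 0.00611) and 1.69-fold at P2 (adjusted p = 0.00241). Its 2 adult pools stood above all others. Its partner Dnajb11, a J-domain protein that delivers clients to BiP, read 1573 and 1685 units in the E19 pools, 1988 and 2167 in the P2 pools and 2749 and 2394 in the adult pools. The 3 stages of Dnajb11 did not overlap, and it was 1.58-fold lower at E19 (log2 -0.66 ± 0.11, adjusted p = 0.00628), while at P2 the difference of -0.31 did not pass (adjusted p = 0.0718). Dnajc3, another J-domain protein, read 1616 and 1793 units in the E19 pools, 1413 and 1643 in the P2 pools and 2509 and 2313 in the adult pools.

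Both adult values of Dnajc3 were above all perinatal ones. It was lower 1.42-fold at E19 (adjusted p = 0.0187) and 1.58-fold at P2 (adjusted p = 0.00897), and its call at E19 ended without E19 pool 1, E19 pool 2 or adult pool 1 (log2 -0.58 to -0.43). Hyou1, which exchanges the nucleotide of BiP, was the dimmest of the 38 genes. It read 95.5 and 117.9 units in the E19 pools, 174.5 and 204.2 in the P2 pools and 133.1 and 98.8 in the adult pools, close to the floor of 100 units. P2 stood apart, 1.65-fold above the adult (log2 0.72 ± 0.20, adjusted p = 0.0314) and 1.78-fold above E19 (adjusted p = 0.0699). The call against the adult ended without P2 pool 1, P2 pool 2 or adult pool 2, with log2 differences of 0.50 to 0.93.

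By the probe set chosen for each gene, the lectin chaperones and the Hsp90 of the ER differed less than Hspa5 from the adult. Canx, the membrane-bound lectin of the calnexin cycle, read 8342 and 8370 units in the E19 pools, 8106 and 8505 in the P2 pools and 10125 and 10738 in the adult pools, lower 1.25-fold at E19 (adjusted p = 0.0266) and 1.26-fold at P2 (adjusted p = 0.0271). Both adult pools were above the rest, yet the call at E19 ended without either E19 or either adult pool (range -0.36 to -0.28 on the log2 scale), and the call at P2 without any 1 of the 6 pools (-0.37 to -0.29). Of 2 further probe sets of Canx, 1 was lower at both stages (by 0.65 and 0.44) and 1 was called at neither, with log2 differences of -0.47 and -0.74 (adjusted p = 0.176 and 0.0643). Hspa5 stood at -0.52 and -0.48, so the first of these differed more than Hspa5 at E19 and the second at P2.

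Hsp90b1 (GRP94) read 11225 and 10906 units in the E19 pools, 10151 and 9954 in the P2 pools and 12911 and 12915 in the adult pools. Its log2 difference was -0.22 at E19 (adjusted p = 0.0627) and -0.36 at P2 (adjusted p = 0.0166), and the call at P2 ended without either P2 or either adult pool (-0.38 to -0.35). Calr, the soluble lectin of the same cycle as Canx, read 3766 and 3831 units in the E19 pools, 3190 and 3664 in the P2 pools and 4215 and 4211 in the adult pools, with log2 differences of -0.15 and -0.30 that were not called. Of the chaperones, Hspa5, Canx, Dnajc3 and Sdf2l1 were lower at both stages, Dnajb11 at E19 alone and Hsp90b1 at P2 alone. The summed epithelial markers were also lower at both stages, mostly through Prlr and F5. Kl, Cldn2 and Enpp2 were called lower at both stages as well, and Slc5a5 was lower and Otx2 higher at E19 alone. Ttr, Aqp1, Folr1, Igfbp2 and Htr2c were not called. The part of the epithelial markers in the chaperone values was not tested.

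**Figure D4:**
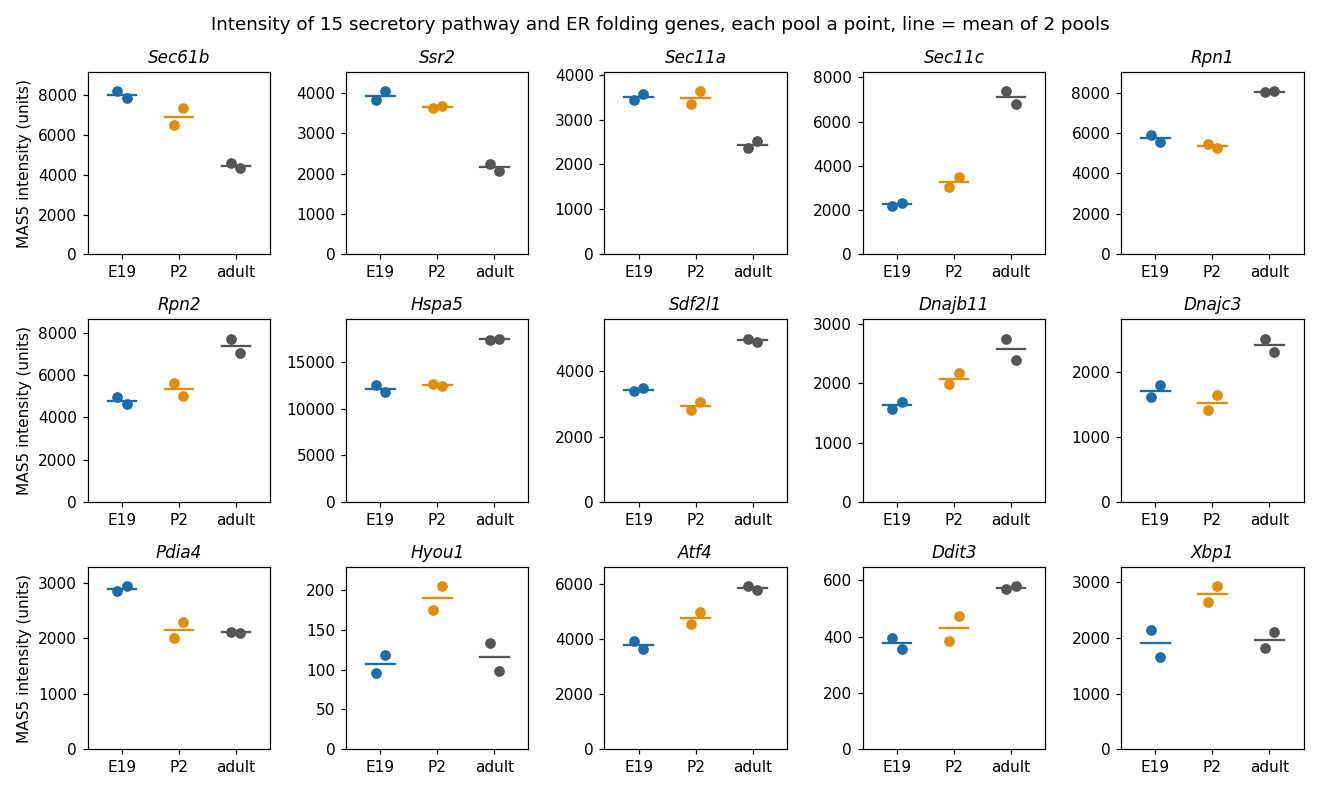
MAS5 intensity in units of 15 genes, with a point per pool and a line at the mean of the 2 pools at E19 (blue), P2 (orange) and in the adult (grey); each vertical axis starts at 0 and has its own range. Sec61b, Ssr2 and Sec11a are lowest in the adult (4594 and 4334, 2250 and 2069, and 2359 and 2513 units), whereas Sec11c, Rpn1, Rpn2, Hspa5, Sdf2l1, Dnajb11, Dnajc3, Atf4 and Ddit3 are highest there, and Hyou1 and Xbp1 are highest at P2.

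Of the 4 disulphide isomerases, 2 were higher and 2 not called at E19 and none was called at P2, with medians of 0.21 and 0.13. The share of higher genes among all genes tested was 31.4% at E19 and 28.8% at P2. With median centring no isomerase was called higher and 1, Pdia3, was lower at both stages (log2 -0.38, adjusted p = 0.0227, and -0.47, adjusted p = 0.0118). The same centring gave 20.2% of all genes higher and 40.4% lower at E19, and 19% and 36.4% at P2. Pdia4 (ERp72) read 2857 and 2938 units in the E19 pools, 2011 and 2296 in the P2 pools and 2120 and 2104 in the adult pools. E19 alone stood apart, 1.37-fold above the adult (log2 0.46 ± 0.10, adjusted p = 0.0139), and P2 was 1.35-fold below E19 with an adjusted p of 0.0669. Without E19 pool 1, E19 pool 2 or adult pool 2 the call at E19 ended (log2 0.44 to 0.48).

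Pdia6 (P5), which also binds BiP, read 10056 and 10502 units in the E19 pools, 9722 and 9681 in the P2 pools and 8209 and 8241 in the adult pools. All perinatal values were above the adult ones, by 0.32 at E19 (adjusted p = 0.0217) and 0.24 at P2 (adjusted p = 0.0581) on the log2 scale, and the call at E19 ended without either E19 or either adult pool (0.29 to 0.35). The log2 ratio of Sdf2l1 to Pdia6 was -1.57 and -1.59 in E19 pools, -1.80 and -1.66 in P2 pools and -0.72 and -0.75 in adult pools. Every perinatal ratio was below the adult ones, 1.80-fold at E19 and 1.99-fold at P2.

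Pdia3 (ERp57), which acts on glycoproteins held by calnexin and calreticulin, read 12236 and 12203 units in the E19 pools, 11502 and 11069 in the P2 pools and 12822 and 13345 in the adult pools and was not called on the deposited scale (log2 -0.10 and -0.21). Its second probe set gave a larger difference. That probe set read 520.8 and 561.8 units in the E19 pools, 575.7 and 460.2 in the P2 pools and 1220 and 1287 in the adult pools, 2.32-fold and 2.43-fold lower, and was called at both stages. P4hb, the classical disulphide isomerase and a subunit of collagen prolyl 4-hydroxylase, read 6082 to 7773 units on all arrays and was not called.

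All 8 vesicle coat genes among the 38 lay within 1.5-fold of the adult. Among all genes tested, 25.2% were lower at E19 and 21.8% at P2, or 40.4% and 36.4% with median centring. None of the 4 COPI genes was called at E19 and 2 were lower at P2, with medians of -0.08 and -0.19, whereas with median centring 3 of 4 were lower at each stage (Copa, Copb1 and Cope). Copa, the alpha subunit and the brightest of these probe sets, read 4170 and 3899 units in the E19 pools, 3616 and 3153 in the P2 pools and 4546 and 4522 in the adult pools. P2 was lowest, at a log2 difference of -0.43 from the adult (adjusted p = 0.0227), a call that ended without P2 pool 2, adult pool 1 or adult pool 2 (-0.52 to -0.33).

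Copb1, the beta subunit, read 3711 and 3823 units in the E19 pools, 3091 and 2970 in the P2 pools and 3841 and 3766 in the adult pools. The E19 and adult pools overlapped and P2 stood below both, by 0.33 relative to the adult on the log2 scale (adjusted p = 0.024) and by 0.31 relative to E19 (adjusted p = 0.0832). The call against the adult ended without any 1 of the 6 pools (-0.36 to -0.30). Copb2 and Cope, the beta prime and epsilon subunits, differed from the adult by -0.15 to 0.17 on the log2 scale and were not called on the deposited scale.

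In the COPII coat, 1 of 4 genes tested was higher at E19 and 2 at P2, with medians of 0.14 and 0.17. The share of higher genes among all genes tested was 31.4% at E19 and 28.8% at P2. With median centring no COPII gene was called higher and Sar1a was lower at both stages. The same centring gave 20.2% of all genes higher and 40.4% lower at E19, and 19% and 36.4% at P2. Sec24d, which selects cargo, read 2047 and 1978 units in the E19 pools, 2264 and 2002 in the P2 pools and 1578 and 1617 in the adult pools, higher 1.26-fold at E19 (adjusted p = 0.0354) and 1.33-fold at P2 (adjusted p = 0.0202). All 4 perinatal values exceeded the adult ones, but the call ended at E19 without either E19 or either adult pool (range 0.31 to 0.36 on the log2 scale), and the call at P2 ended without P2 pool 1, adult pool 1 or adult pool 2 (0.33 to 0.50). Sec13, part of the outer coat, read 3052 and 3022 units in the E19 pools, 3472 and 3521 in the P2 pools and 2698 and 2583 in the adult pools.

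The stages of Sec13 formed separate levels with P2 on top, 1.32-fold above the adult (log2 0.41, adjusted p = 0.0121), a call that ended without adult pool 2 (range 0.37 to 0.44 over the fits without 1 pool). Sec23b, the brightest of the group and the partner of Sec24 in the inner coat, read 5712 and 5138 units in the E19 pools, 5096 and 4677 in the P2 pools and 5045 and 5163 in the adult pools, with overlapping stages. Sar1a, the GTPase that starts the coat, differed by -0.09 at both stages.

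The 3 transcription factors of the UPR gave 3 patterns. Atf4, the factor downstream of the kinase PERK, read 3937 and 3631 units in the E19 pools, 4545 and 4976 in the P2 pools and 5905 and 5779 in the adult pools. Its levels lay in the order of the stages without overlap, lower 1.54-fold at E19 (log2 -0.63 ± 0.10, adjusted p = 0.0044) and 1.23-fold at P2 (-0.30 ± 0.10, adjusted p = 0.0514, not called) relative to the adult. Ddit3 (CHOP), a target of Atf4, read 394.8 and 356.4 units in the E19 pools, 383.9 and 474.4 in the P2 pools and 568.2 and 577.8 in the adult pools. E19 and P2 overlapped and both lay below the adult, by 0.61 (adjusted p = 0.0136) and 0.43 (adjusted p = 0.046) on the log2 scale.

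The call of Ddit3 at E19 ended without E19 pool 2 or adult pool 2 (log2 -0.68 to -0.54), and its call at P2 held only without P2 pool 2 (-0.58 to -0.27). Xbp1, the factor of the IRE1 branch, read 2139 and 1658 units in the E19 pools, 2643 and 2917 in the P2 pools and 1818 and 2105 in the adult pools. E19 and adult pools overlapped and P2 was highest, 1.42-fold above the adult (log2 0.51 ± 0.16, adjusted p = 0.049) and 1.47-fold above E19 (adjusted p = 0.101). This call ended without either P2 or either adult pool (0.40 to 0.61) and with either median centring.

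Read against the promoters shown above, the 8 genes with an ERSE or ERSE-II all had log2 differences below 0 at E19 and lay on both sides of 0 at P2. At E19, 4 (50%) were lower than in the adult (Hspa5, Canx, Dnajc3 and Dnajb11) and 4 were not called, with a median of -0.27. At P2, 4 (50%) were lower (Hspa5, Hsp90b1, Canx and Dnajc3), 2 (25%) were higher (Hyou1 and Xbp1) and 2 were not called, with a median of -0.32. Of all genes tested, 31.4% were higher and 25.2% lower at E19, and 28.8% higher and 21.8% lower at P2. With median centring Hspa5, Hsp90b1, Calr, Canx, Dnajc3 and Dnajb11 were lower at both stages and none of the 8 was called higher, with medians of -0.55 and -0.57. These are 75% of the 8, against 40.4% (E19) and 36.4% (P2) of all genes lower with the same centring. Apart from Xbp1 the 8 genes are chaperones, and Sdf2l1, the chaperone with neither element, was lower at both stages as well (log2 -0.53 and -0.76). The 25 tested genes with a promoter and neither element had medians of -0.10 and -0.05, with 5 higher and 7 lower at E19 and 5 higher and 8 lower at P2, or with median centring 2 higher and 14 lower at E19 and 2 higher and 12 lower at P2. Of the genes with a UPRE, Copa and Copb1 were lower and Hyou1 higher at P2, and Copb2 was not called at either stage. Sec23a, which also has a UPRE, was not analysed.

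Between E19 and P2 no gene of the 38 passed the test, and the log2 differences of P2 versus E19 ran from -0.43 for Pdia4 to 0.83 for Hyou1. The 8 genes with an unadjusted p under 0.05 were Sec11c (0.53), Hyou1 (0.83), Dnajb11 (0.35), Xbp1 (0.56) and Atf4 (0.33), higher at P2, and Sdf2l1 (-0.23), Pdia4 (-0.43) and Copb1 (-0.31), lower at P2. Their adjusted p ran from 0.0558 for Sec11c to 0.179 for Sdf2l1. Over the whole array, 2754 of 10334 genes tested had an unadjusted p under 0.05 in this comparison. With 2 pools per stage, a p that misses the threshold does not show that both stages were alike.

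A wider list of 95 further genes of the same pathway, 89 with a probe set and 84 tested, also held more lower than higher genes. At E19, 13 (15.5%) stood above the adult and 31 (36.9%) below it, against 8 higher (9.52%) and 30 lower (35.7%) at P2, with medians of -0.16 and -0.10. Over all genes tested, 31.4% were higher and 25.2% lower at E19, and 28.8% higher and 21.8% lower at P2. With median centring, 6 of the further genes were higher and 49 lower at E19, where 20.2% of all genes were higher and 40.4% lower. Herpud1, a component of ER-associated degradation with an ERSE-II in its promoter, read 1066 and 1029 units in the E19 pools, 2138 and 1741 in the P2 pools and 2624 and 2788 in the adult pools. Its stages were separate, lower 2.58-fold at E19 (log2 -1.37, adjusted p = 0.000879) and 1.40-fold at P2 (-0.49, adjusted p = 0.0263) relative to the adult, and P2 stood 1.84-fold above E19 (adjusted p = 0.0275).

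The calls of Herpud1 for P2 were fragile. That against the adult held only without P2 pool 1 (log2 -0.64 to -0.34 over the fits without 1 pool), and that against E19 only without adult pool 1 or adult pool 2 (0.73 to 1.03). Ero1b, an oxidase that recharges disulphide isomerases, read 658.0 and 565.0 units in the E19 pools, 869.1 and 933.5 in the P2 pools and 1278 and 1346 in the adult pools, with 3 separate levels. It was lower 2.15-fold at E19 (adjusted p = 0.00118) and 1.46-fold at P2 (adjusted p = 0.0133) relative to the adult, and 1.48-fold higher at P2 than at E19 (adjusted p = 0.0499).

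Manf, a secreted protein that binds BiP, read 2251 and 2271 units in the E19 pools, 2990 and 3308 in the P2 pools and 4222 and 4361 in the adult pools, again with 3 separate levels. It was lower 1.90-fold at E19 (adjusted p = 0.00112) and 1.36-fold at P2 (adjusted p = 0.0131) relative to the adult, and 1.39-fold higher at P2 than at E19 (adjusted p = 0.0477). For Ero1b and Manf, any 1 pool left out ended the call of P2 versus E19 (log2 0.45 to 0.67 and 0.40 to 0.55), and leaving out P2 pool 1 or adult pool 2 ended that of P2 versus adult (-0.59 to -0.49 and -0.52 to -0.38). Sec31a, an outer COPII subunit, read 196.0 and 136.5 units in the E19 pools, 88.1 and 138.0 in the P2 pools and 261.5 and 267.7 in the adult pools. E19 and P2 overlapped and both lay below the adult, with Sec31a 2.40-fold lower at P2 (log2 -1.26, adjusted p = 0.0155), a call that ended without P2 pool 1, adult pool 1 or adult pool 2 (-1.59 to -0.94).

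Pdia5, a further disulphide isomerase, read 524.7 and 525.4 units in the E19 pools, 254.6 and 119.7 in the P2 pools and 156.1 and 157.9 in the adult pools. E19 stood apart and the P2 pools disagreed, lying on either side of the adult. It was 3.34-fold higher at E19 than in the adult (log2 1.74, adjusted p = 0.0108), a call that ended without E19 pool 1 or E19 pool 2 (1.73 to 1.75).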

How the data were processed

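The authors hybridised RNA of 6 pools to Affymetrix rat arrays and deposited 1 table of signal intensity on a linear scale. Per the labels' processing notes they used Affymetrix Expression Console and MAS5, which scales each array to a common trimmed mean (versions, build and further settings not given in the sources used here). All 6 value columns were used. Of its 31099 probe sets, 57 control probe sets were removed. Gene names came from the platform annotation (20832 probe sets with a single gene, 436 with several, and the others of 31099 unnamed) and RefSeq (GRCr8), where 68 gene numbers found no match.

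Probe sets that averaged 100 units or more in any stage were kept (17808), and their log2 intensities were modelled in limma 3.58.1 under R 4.3.3 (lmFit, eBayes, 3 residual and 2.15 prior degrees of freedom), with 1 mean per stage over all 6 arrays. Moderated two-sided p-values were adjusted by Benjamini-Hochberg over all tested probe sets, and an adjusted p under 0.05 was called. The procedure was also run on simulated data with known folds, and its recovery of them is not given here. Precision is limited by the number of arrays. Samples were grouped by their labels, and each perinatal stage was set against the adult and P2 against E19. The genes, lists and tests were chosen with earlier results of these data known.

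Any of the 39 genes could be named. Those called with a fold of at least 1.5, and the brightest of each group, were given on every array, as were others where a result turned on them. Of the further genes, the 3 largest called changes per direction and comparison were named. Same-numbered pools of different stages did not deviate together (correlations of -0.057, -0.041 and 0.007), so they were not paired. Alternatives changed the filter, scaling, low values, prior, arrays in the fit, block, probe sets and threshold, and left out each pool in turn. Ratios within an array, motif counts and group medians are descriptions with no test.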

Additional observations from a re-analysis of the deposited data

How the results depend on the processing

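With 2 pools per stage, every difference, large or small, rests on 3 residual and 2.15 prior degrees of freedom. Against 7 genes of the 38 higher and 11 lower at E19 and 9 higher and 12 lower at P2 relative to the adult, leaving out 1 pool gave 4 to 7, 7 to 10, 3 to 7 and 5 to 8 genes. No filter on low values gave 4, 7, 3 and 5, the threshold of 0.01 also gave 4, 7, 3 and 5, and centring on the median of all probe sets gave 2, 22, 2 and 20. Centring on the tested probe sets, added after the data were seen, left 4 genes higher at P2 (5 at E19, with 15 and 17 lower). For P2 versus E19, where 0 genes were called in either direction, a filter at 200 units called 1 higher and 1 lower, raising values under 100 to 100 units 2 and 1, and a trended prior 4 and 4, and 0 were called without any 1 pool. The replicate number as a block gave 6, 10, 5 and 9, the 5 genes higher at P2 being the only count it moved by over 1.5 times. Quantile normalization, fitting only the stages compared, and the mean of a gene's probe sets kept all counts within 1.5 times. Causes were not tested. The same alternatives were run for the further genes after the data were seen. There Pdia5, not called at P2 versus adult at 0.15, stood at -0.39 and was called lower without P2 pool 1, and at 0.70 and was called higher without P2 pool 2. Intensity near 100 units limits Hyou1 most among the 38.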

Other observations

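Genes for folding collagen, a main product of fibroblasts, were the group of the wider list most often higher at the perinatal stages, with 4 of 7 tested higher and 1 lower at E19 and 4 higher and 0 lower at P2, at medians of 0.77 and 0.73 on the log2 scale. Beside this, 31.4% of all genes tested were higher and 25.2% lower at E19, and 28.8% and 21.8% at P2. Serpinh1, the collagen chaperone, read 9091 and 8782 units in the E19 pools, 7623 and 7591 in the P2 pools and 4785 and 4367 in the adult pools. No perinatal pool overlapped an adult one, and it was higher 1.96-fold at E19 (adjusted p = 0.000914) and 1.66-fold at P2 (adjusted p = 0.00267, limma). Fkbp10, a prolyl isomerase of procollagen, read 416.6 and 409.8 units in the E19 pools, 558.0 and 438.9 in the P2 pools and 228.3 and 256.4 in the adult pools, and was 2.05-fold higher at P2 (adjusted p = 0.004). P3h1 and Plod1, which hydroxylate collagen, were 1.77-fold (adjusted p = 0.00358) and 1.72-fold (adjusted p = 0.00522) higher at P2. These values stand beside summed fibroblast markers of 36635 to 36703 units at E19, 36512 to 41164 at P2 and 14330 to 18307 in the adult, whose part was not tested.

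Of 10 tested stress sensors and their targets, 1 was higher and 4 were lower at E19, and 0 were higher and 4 lower at P2. Beside this, 31.4% of all genes were higher and 25.2% lower at E19, and 28.8% and 21.8% at P2. Asns, the asparagine synthetase induced through Atf4, read 400.7 and 384.9 units in the E19 pools, 338.2 and 405.3 in the P2 pools and 887.6 and 818.1 in the adult pools, lower 2.17-fold at E19 (adjusted p = 0.00144) and 2.30-fold at P2 (adjusted p = 0.00147). Chac1, another target of that factor, read 169.6 and 184.4 units in the E19 pools, 104.5 and 109.5 in the P2 pools and 201.7 and 234.1 in the adult pools. P2 was lowest, 2.03-fold below the adult (adjusted p = 0.00191) and 1.65-fold below E19 (adjusted p = 0.0334), and the call against E19 ended without E19 pool 1, E19 pool 2, P2 pool 1 or P2 pool 2 (log2 -0.79 to -0.66). Atf3 read 206.8 and 198.0 units in the E19 pools, 146.8 and 91.8 in the P2 pools and 90.7 and 59.2 in the adult pools, where both pools were under 100 units. It is the 1 gene of this list called higher at E19 (adjusted p = 0.0112), it passed the filter through the perinatal pools, and the call ended without E19 pool 1 or E19 pool 2. Of 10 tested ER-associated degradation genes, 5 (50%) were lower and 1 (10%) higher at each perinatal stage, where 25.2% and 21.8% of all genes were lower and 31.4% and 28.8% higher.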
